A study of Caenorhabditis elegans with 2 samples.

Results

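The genes described here encode CDC-48 of the nematode Caenorhabditis elegans and its UFD and NPL-4 cofactors: cdc-48.1, cdc-48.2, ufd-1, ufd-2, ufd-3, npl-4.1 and npl-4.2. The ufd genes are named after ubiquitin fusion degradation. They are 7 of the 19973 nuclear protein-coding genes in the annotation, taken by symbol, and all 7 had a match. The measurement was ChIP-seq of CEH-27, an NK-2 class homeodomain transcription factor, in whole young adult worms at 73 hours (strain OP139, pooled male and female). These worms carry the transgene wgIs139, a fosmid copy of ceh-27 with TY1, EGFP and 3xFLAG tags, together with the rescue marker unc-119(+) in an unc-119(ed3) background. Bound DNA was recovered with an anti-GFP antibody according to the samples' description, whereas their antibody field reads ceh-27. The worms formed a single group, sampled as biological replicates 4 and 1 of the same line, and the label does not give the share of each sex. All values come from a tagged transgene in whole animals, so that the cells in which a region was bound are not known, and binding by CEH-27 without the tag was not measured separately. The depth of the libraries is unknown, since the region lists hold no read counts.

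CDC-48, known as VCP in mammals, is an AAA ATPase that works as a ring of subunits and uses ATP to pull ubiquitin-tagged proteins out of membranes, chromatin and protein complexes. Adaptor proteins bring it its substrates: UFD-1 and NPL-4 form the main ubiquitin-binding adaptor, as shown first in yeast, and other adaptors carry a UBX domain. UFD-2 belongs to a class of ubiquitin ligases that lengthen existing ubiquitin chains, and UFD-3 is the worm relative of yeast Doa1, a ubiquitin-binding cofactor. In this worm the ATPase and NPL-4 are each encoded by paralogous genes.

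The study deposited 4 region lists, each with 1 summit per region: a reproducible set of 2328 peaks, kept by the authors for their irreproducible discovery rate (IDR), a pooled list, and 1 list for each replicate. The pooled and replicate lists each held 30000 regions and include background. Signal is the authors' value for each region on a scale that is not stated, so it is compared only within a list, and rank counts from the highest signal of that list. The reproducible set was the 2328 strongest regions of the pooled list, with a lowest signal of 91.7 and a median of 134.6. A gene's window ran from 2000 bp upstream of any annotated 5' end to its 3' end. Because these genes were chosen with their values in these lists known, counts and levels are descriptions without a test.

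The sequence at 4 upstream summits is shown, since these carry the main contrasts: the strongest region of cdc-48.1, the only reproducible region of ufd-3, the region of cdc-48.2 just outside the reproducible set, and the region of ufd-2 that both replicates held. Each line gives 101 bases centred on the summit from the reference genome (WBcel235, the assembly of ce11), 5' to 3' on the gene's strand. The intervals are chrII:10563536-10563636 on the minus strand for cdc-48.1, and on the plus strand chrII:9940576-9940676 for ufd-3, chrII:8137602-8137702 for cdc-48.2 and chrII:8062390-8062490 for ufd-2. Capitals mark CACTT, the reverse complement of the NK-2 core AAGTG, in cdc-48.1, and a run of 12 bases shared by cdc-48.2 and ufd-2.
cdc-48.1: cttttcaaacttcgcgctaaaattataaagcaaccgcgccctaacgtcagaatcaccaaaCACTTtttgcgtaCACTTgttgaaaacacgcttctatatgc
ufd-3: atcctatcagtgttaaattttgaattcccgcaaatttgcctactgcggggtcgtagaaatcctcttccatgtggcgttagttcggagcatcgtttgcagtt
cdc-48.2: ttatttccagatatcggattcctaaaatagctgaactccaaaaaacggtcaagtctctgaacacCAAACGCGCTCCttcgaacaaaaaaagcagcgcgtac
ufd-2: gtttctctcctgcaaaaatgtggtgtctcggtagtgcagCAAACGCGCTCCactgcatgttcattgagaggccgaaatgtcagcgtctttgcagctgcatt

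A reproducible summit lay in the windows of 2 of the 7 genes, cdc-48.1 and ufd-3, while 12.6% of all protein-coding genes had one. The other 5 genes had none. In the pooled list 5 of the 7 genes had a summit, all but npl-4.1 and npl-4.2, and 63.8% of all genes had one. Among the 2328 strongest regions of a replicate, the same 3 genes had a summit in replicate 4 and in replicate 1, namely cdc-48.1, ufd-3 and ufd-2, where the share over all genes was 12.3% in replicate 4 and 12.8% in replicate 1. Counting all regions, weak ones included, 6 of the 7 genes had a summit in each replicate, but not the same 6. In replicate 4 these were all but npl-4.2, and 64.4% of all genes had a summit. In replicate 1 they were all but npl-4.1, and the share over all genes was 70.1%. The reproducible count stayed at cdc-48.1 and ufd-3 in the stronger part of the set (7.19% of all genes), with windows from 1000 bp upstream (10.1%) or 500 bp upstream (8.59%), and in promoters, from 1000 bp upstream to 200 bp downstream of a 5' end (8.46%). Of the 7 genes 6 lie on chromosome II, and ufd-1 lies on chromosome IV.

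**Figure D1:**
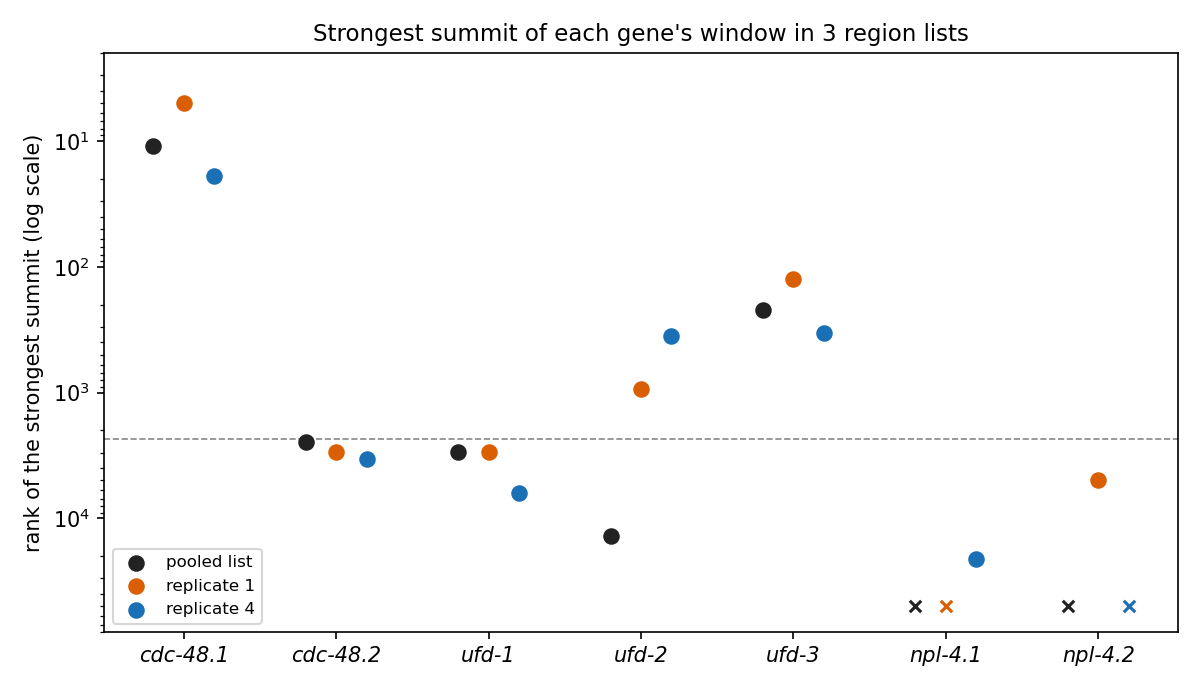
Rank of the strongest summit in each gene's window (vertical axis, log scale, strongest at the top) in the pooled list (black), replicate 1 (orange) and replicate 4 (blue). The dashed line is rank 2328, the edge of the reproducible set in the pooled list, and crosses mark a list with no summit in the window. The gene cdc-48.1 stands highest in all 3 lists, and ufd-2 lies above the line in both replicates and far below it in the pooled list.

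The gene cdc-48.1 (WBGene00007352; chromosome II, 10560036 to 10563407, minus strand, build ce11) encodes the ATPase itself. Its strongest region, from 10563454 to 10563694, had a signal of 666.8 in the pooled list, which was rank 11. The same region had a signal of 367.6 in replicate 4 (rank 19) and of 310.0 in replicate 1 (rank 5). Only 5 of the 2186 reproducible peaks found in both replicate lists, this one included, ranked at least as high in both. The pooled summit was intergenic, 179 bp upstream of the 5' end, and the summits of replicate 4 and replicate 1 lay 20 and 3 bp from it. The region was 241 bp wide, against a median of 344 bp over the reproducible set, in which 29.0% of peaks were narrower than that median. Of the 2510 genes with a reproducible summit in the window, 22 had a strongest signal at least as high (0.876%), cdc-48.1 included. The median over the 2510 genes was 145.1. A peak counted for every gene whose window held it, so this peak also placed C06A1.7 among the 22. No other protein-coding gene had a 5' end nearer to this summit. The next, C06A1.6, lay 1092 bp away by its own 5' end, and the summit also fell in the 2000 bp upstream window of C06A1.7, at 1305 bp.

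A second reproducible summit of cdc-48.1 lay at the other end of the gene, in its 3' untranslated sequence, 65 bp from the 3' end. Its region, from 10559929 to 10560272, was among the weakest of the set, with a pooled signal of 92.1 at rank 2309, 19 places above the edge. The replicates differed more here. Replicate 4 had a summit 31 bp away with a signal of 72.2 at rank 1682, and replicate 1 had one 43 bp away with a signal of 25.5 at rank 6688. In replicate 1 alone this end of the gene was not among the 2328 strongest regions. Of all protein-coding genes 1.29% had 2 or more reproducible summits in the window, and 0.381% had one within 100 bp of the 3' end. Between the ends the pooled list held 2 weak summits in coding sequence, with signals of 59.9 (rank 5446) and 45.7 (rank 10391), each matched within 100 bp in 1 replicate only.

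The paralogue cdc-48.2 (WBGene00008053; chromosome II, 8138496 to 8141230, plus strand) lies 2418805 bp away on the same chromosome. It had no reproducible summit. Its strongest pooled region, from 8137480 to 8137823, had a signal of 89.2 at rank 2457, 129 places below the edge of the set. The signal there was 51.8 in replicate 4 (rank 3392) and 34.5 in replicate 1 (rank 2972), and the summits of the replicates were 3 bp apart. The summit was intergenic and 844 bp upstream of cdc-48.2. It lay nearer, at 734 bp, to the 5' end of the divergent neighbour ctns-1, the worm gene of the lysosomal cystine transporter cystinosin, and was in the upstream windows of both genes. The threshold thus fell between the weaker region of cdc-48.1, just inside with a signal of 92.1, and the strongest of cdc-48.2, just outside with 89.2. Their −log10 q values, 2.82 in cdc-48.1 and 2.85 in cdc-48.2, had the opposite order.

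Set side by side within each list, the strongest summit of cdc-48.1 exceeded that of cdc-48.2 by 7.47-fold in the pooled list, 7.10-fold in replicate 4 and 8.99-fold in replicate 1. The cdc-48.2 summit in this comparison is the upstream one that lies nearer to the 5' end of ctns-1. The direction was the same in both replicates. Because the scale of the signal is not stated, these ratios describe the listed values and do not measure a fold difference in binding. Both paralogues also had a pooled summit within 100 bp of the 3' end, as did 4.53% of all genes, with a signal of 92.1 in cdc-48.1 and of 58.7 (rank 5721) in cdc-48.2, where the summit lay 23 bp from the 3' end. In cdc-48.2 that summit had a match in replicate 4, 76 bp away with a signal of 32.4, and none within 100 bp in replicate 1. Little sequence is shared between the paralogues at the scale of short reads. Of the runs of 31 bases in the window of cdc-48.1, 0.131% also occurred in that of cdc-48.2. Anywhere else in the genome, 9.94% of the runs in the window of cdc-48.1 and 0.149% of those in the window of cdc-48.2 occurred again, beside a median of 0.940% over all genes, and within the gene cdc-48.1 itself the share was 0.209%. Within 150 bp of each pooled summit of either gene, and of the upstream and 3' end summits that the replicates held, no run was repeated. For 2 replicate 1 summits in coding sequence of cdc-48.1 the share was 1.85%.

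**Figure D2:**
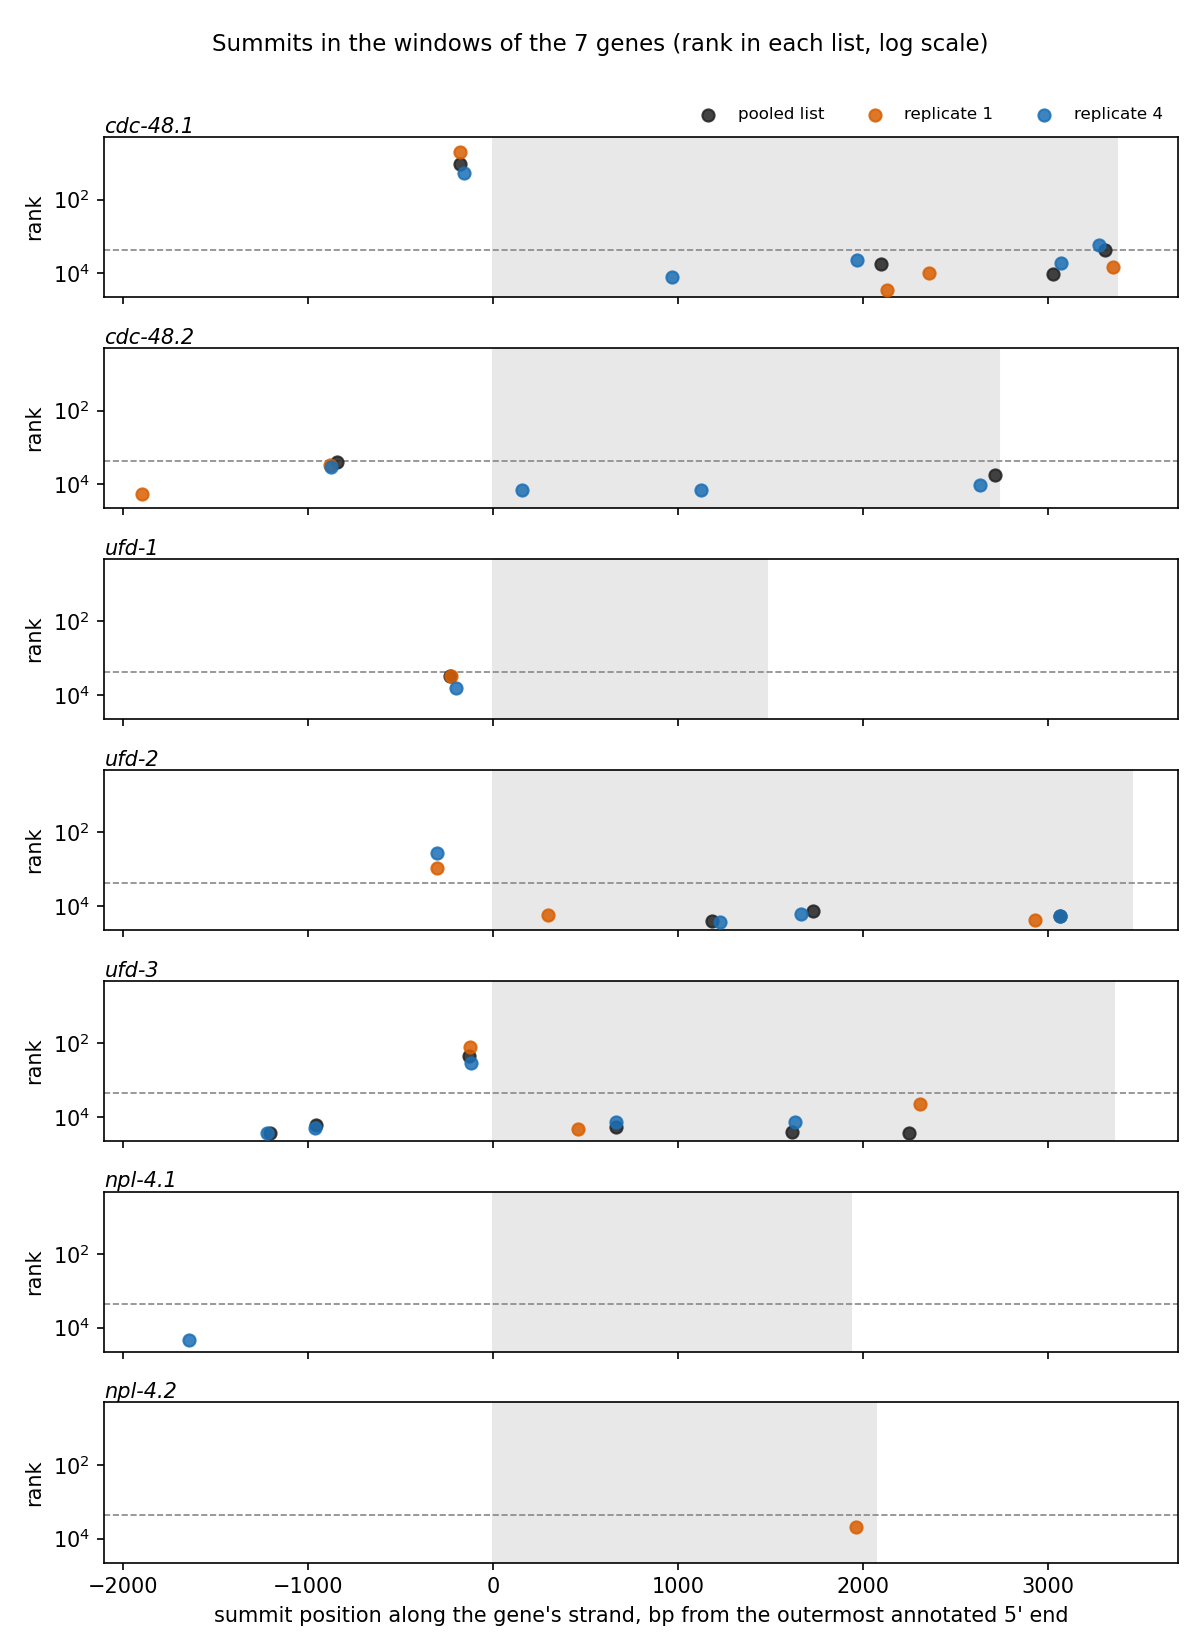
Every summit in the windows of the 7 genes, by position along the gene's strand from the outermost 5' end (horizontal axis, bp) and rank in its own list (vertical axis, log scale, strongest at the top), for the pooled list (black), replicate 1 (orange) and replicate 4 (blue). Grey marks the gene and the dashed line rank 2328. In cdc-48.1, ufd-2 and ufd-3 the highest summits sit just upstream of the gene, while inside the genes only the 3' end summit of cdc-48.1, in the pooled list and replicate 4, lies above the line.

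Among the cofactors, ufd-3 (WBGene00007333; chromosome II, 9940753 to 9944107, plus strand) had the only reproducible peak. Its region, from 9940527 to 9940731, had a pooled signal of 279.9 at rank 222, with 158.9 in replicate 4 (rank 336) and 122.3 in replicate 1 (rank 126). The pooled summit was intergenic, 127 bp upstream of the nearest 5' end of ufd-3, and the replicate summits lay 10 and 5 bp from it. By strongest signal, 12.6% of the genes with a reproducible summit ranked at or above ufd-3. The summit was 958 bp from the 5' end of the upstream neighbour C05C10.5, on its downstream side, and fell in the window of C05C10.7, at 1655 bp. The 5 other pooled summits of ufd-3 had signals from 26.9 to 36.5, at ranks 16869 to 28114. Of these, the one nearest to an internal 5' end, 15 bp upstream of it, had a signal of 26.9 in the pooled list (rank 28114) but a match of signal 29.7 at rank 4362 in replicate 1, and none in replicate 4.

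The gene ufd-2 (WBGene00006734; chromosome II, 8062741 to 8066193, plus strand) showed a different pattern, in which the lists disagreed. Replicate 4 held a region from 8062358 to 8062493 with a signal of 154.3 at rank 356, and replicate 1 held one from 8062280 to 8062595 with a signal of 58.0 at rank 937. The summits were 2 bp apart, 301 and 303 bp upstream of ufd-2 in intergenic sequence. Both had the highest −log10 q of their list, 3.42 in replicate 4 and 3.34 in replicate 1. These values were shared by 1330 regions in replicate 4 and 1089 in replicate 1. In replicate 4 the ufd-2 signal was close to the 158.9 of ufd-3, and in replicate 1 it was less than the 122.3 of ufd-3. The pooled list nevertheless had no region there. Its nearest region on the side of the gene began 1261 bp beyond that of replicate 4, and on the other side the gap was 18348 bp. Since the reproducible set was drawn from the pooled regions, ufd-2 had no reproducible peak. The strongest of its 3 pooled summits, all in coding sequence, had a signal of 40.2 at rank 13848.

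Such a disagreement was rare. Of the 1392 regions of replicate 4 that were among its 2328 strongest and had a summit within 100 bp among those of replicate 1, 12 (0.862%) overlapped no pooled region, and the ufd-2 region was number 3 of these by rank in replicate 4. A summit of this kind lay in the windows of 0.0651% of all genes, and one shared by the strongest regions of both replicates, with or without a pooled region, in 8.53%. No run of 31 bases within 150 bp of the ufd-2 summits occurred elsewhere in the genome. This comparison was made after the values of ufd-2 were seen, and the cause was not tested.

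**Figure D3:**
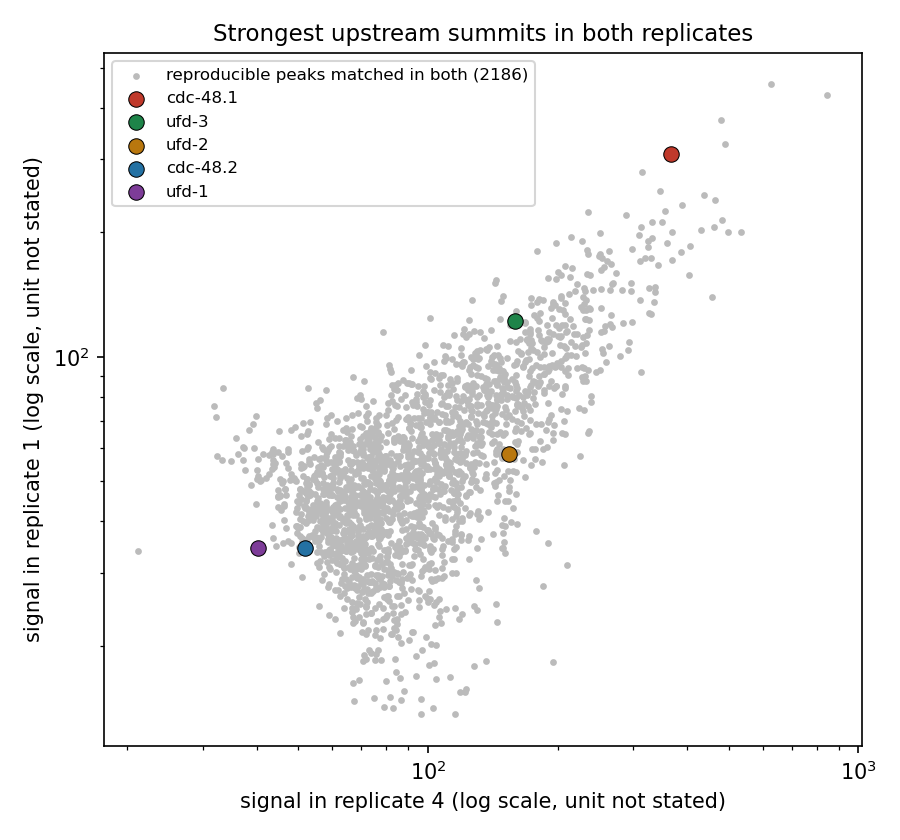
Signal in replicate 4 (horizontal axis) against replicate 1 (vertical axis), both on log scales with no stated unit. Grey points are the 2186 reproducible peaks with a summit within 100 bp in both lists, and large points the strongest summit of 5 genes, of which ufd-2, cdc-48.2 and ufd-1 are not in the reproducible set. The ufd-2 point (154.3 and 58.0) lies within the cloud of reproducible peaks, and those of cdc-48.2 and ufd-1 lie at its lower edge.

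The adaptor genes ufd-1 and npl-4 had weak or no regions. For ufd-1 (WBGene00006733; chromosome IV, 12329408 to 12330890, minus strand) each list held a single summit, at about the same place. Its signal was 80.4 in the pooled list (rank 2976, 648 places below the edge), 40.3 in replicate 4 (rank 6253) and 34.5 in replicate 1 (rank 2970). The pooled summit lay 235 bp upstream of the nearest 5' end of ufd-1 and inside the 3' untranslated sequence of F19B6.1, the neighbour upstream on the same strand. In replicate 1 ufd-1 and cdc-48.2 had almost equal signals, 34.48 and 34.46, so that list does not order them. In replicate 4 cdc-48.2 was higher, with 51.8 against 40.3, and so it was in the pooled list, with 89.2 against 80.4.

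The genes npl-4.1 (WBGene00019120; chromosome II, 5631351 to 5633284, plus strand) and npl-4.2 (WBGene00019121; 5622889 to 5624959, plus strand) had no summit in the reproducible set or the pooled list. The only summit for npl-4.1 was in replicate 4, with a signal of 22.9 at rank 21238, 1641 bp upstream and inside the neighbour F59E12.6. The 5' ends of F59E12.6 and F59E12.15 were nearer to it, at 369 and 1334 bp. For npl-4.2 it was in replicate 1, with a signal of 28.3 at rank 4969, 107 bp from the gene's 3' end. Neither summit was found in the other replicate. Within 150 bp of the npl-4.2 summit, 43.9% of the runs of 31 bases occurred elsewhere in the genome, and none did at the npl-4.1 summit. These paralogues lie 6391 bp apart and are near copies: 75.8% of the runs of 31 bases in the window of npl-4.1 occurred elsewhere in the genome, as did 75.2% in that of npl-4.2, and most of these lay in the other gene's window (75.8% of all runs for npl-4.1 and 73.2% for npl-4.2). Over all genes the median was 0.940%, and 1.36% of genes had a share as high as npl-4.1. How reads with several matches were treated in these lists is not given in the sources used here, so an absence of regions at npl-4.1 and npl-4.2 cannot be told apart from reads that could not be placed.

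**Figure D4:**
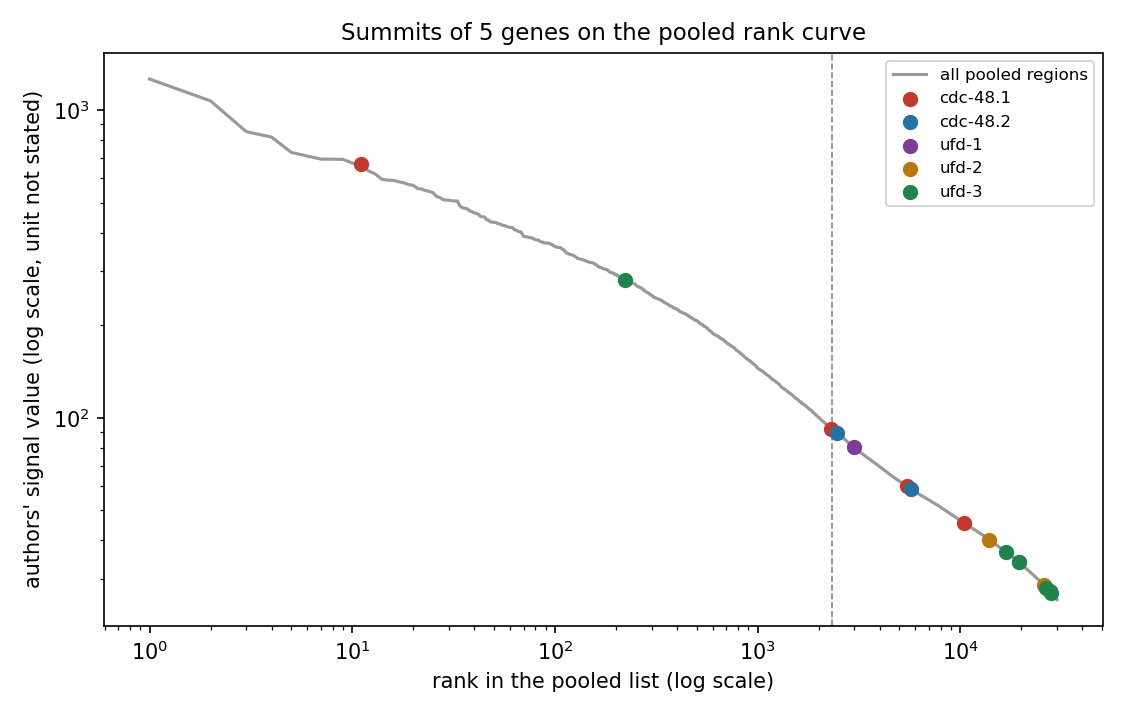
Authors' signal (vertical axis, log scale, unit not stated) against rank (horizontal axis, log scale) for all 30000 pooled regions (grey line), with every pooled summit of 5 genes as points. The dashed line is rank 2328. Only the cdc-48.1 points at 666.8 and 92.1 and the ufd-3 point at 279.9 lie left of it, and npl-4.1 and npl-4.2 have no pooled summit.

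The sequences at the summits were searched for AAGTG on either strand within 50 bp. It was present at 1 of the 3 reproducible summits of these genes and at 27.1% of all 2328. Among the 1164 strongest of these the share was 26.0%. It was 23.9% at the 27672 pooled summits outside the set and 20.9% in windows centred 300 bp to lower coordinates of the reproducible summits. The summit with the core was the upstream one of cdc-48.1, where it occurred in 2 copies on the strand opposite to the gene, centred 12 and 25 bp from the summit on the side of the gene. In the 101 bases shown for ufd-3, cdc-48.2 and ufd-2 the core was not found. The G and C content of the 4 windows was 40.6% for cdc-48.1, 44.6% for ufd-3, 42.6% for cdc-48.2 and 50.5% for ufd-2, and the median over all reproducible summits was 49.5% (quartiles 44.6% and 54.5%).

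The windows of cdc-48.2 and ufd-2 had 12 bases in common on the same strand, CAAACGCGCTCC, starting 14 bp after the summit in cdc-48.2 and 11 bp before it in ufd-2. Other pairs of the 4 windows shared at most 8 bases. Searched on either strand in the same way, this sequence occurred at 17 of 2328 reproducible summits (0.730%). Among the 1164 strongest of these it occurred at 7 (0.601%). It was found at 26 of the 27672 pooled summits outside the set (0.0940%) and in none of 2328 windows centred 300 bp to lower coordinates of the reproducible summits. The sequence also occurred in 0.250% of windows from 250 bp before to 50 bp after the outermost 5' end of each protein-coding gene, which are wider than those at summits. The sequence was picked from the windows themselves, so these shares are a description, and it has no overlap with AAGTG.

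A list of 18 further genes, adaptors and partners of CDC-48 and genes of ER-associated degradation, was described in the same way. A reproducible summit lay in the windows of 3 of the 18, against 12.6% of all genes. The gene ubxn-3, which encodes a UBX adaptor related to mammalian FAF1, had a pooled signal of 172.7 at rank 728, with 126.3 in replicate 4 and 52.7 in replicate 1, and a summit 734 bp upstream. For dvc-1, a relative of the mammalian protease SPRTN, the pooled signal was 120.4 at rank 1433, with 68.2 in replicate 4 and 52.5 in replicate 1, and the summit lay 50 bp upstream. The UBX adaptor gene ubxn-2 had a pooled signal of 109.1 at rank 1734, 54.3 in replicate 4 and 57.2 in replicate 1, and a summit 189 bp upstream. Whether the 5' end of another gene lay nearer to these 3 summits was not examined. All 3 signals were below that of ufd-3, and 2 of them were below the median of 145.1 over genes with a reproducible summit. No reproducible summit was listed for ubxn-1, ubxn-4, ubxn-5, ubxn-6, atx-3, png-1, chn-1, vms-1 or rad-23, or for the ER-associated degradation genes sel-1, sel-11, hrdl-1, cup-2, der-2 and marc-6.

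The reproducible peaks closest to that of cdc-48.1 in rank over the pooled list and both replicates were sought among 1850 others that lie in a gene window and have a summit in both replicates. By distance in log10 rank over these 3 lists, the nearest was the peak 1798 bp upstream of F20B6.9 (distance 0.234), which ranked 16 in the pooled list, 23 in replicate 4 and 7 in replicate 1. It was followed by the peaks upstream of Y17G9B.5 (0.329; ranks 15, 37 and 6), K12H4.5 (0.342; ranks 8, 11 and 8), cox-5A, a cytochrome c oxidase subunit gene (0.406; ranks 18, 21 and 11), and hsr-9 (0.537; ranks 19, 22 and 15), with ranks given in the same order.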

How the data were processed

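Regions bound by tagged CEH-27 were measured by ChIP-seq in 2 replicates of 1 group. The authors deposited 4 region lists, per the labels and the text files of the samples, on build ce11: 1 for each replicate, 1 for both pooled and the reproducible (IDR) set, called with a shared control that was not analysed here. All 4 lists matched the checksums given there. The software for alignment and region calling, with its IDR cutoff, is not given in the sources used here. Each region has a signal value deposited by the authors, with no stated scale, and a deposited −log10 q value. Depth is unknown, so no interval that needs it is given.

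Coordinates are counted from 1. Genes came from Ensembl release 115 and sequence from WBcel235, within whose chromosome lengths all regions fell. Summits within 100 bp were matched between lists. Distances run to the nearest annotated 5' end, which in this worm is often a trans-splice site. Repeats were counted as runs of 31 bases that occur elsewhere on either strand. Window and matching steps were tested on simulated data. The members, partner list and measures were chosen with earlier results of these data known. The text names all members, the partners with a reproducible summit and the 5 peaks most like that of cdc-48.1. Nearer neighbours are named for the main summits of the members, and were not sought for the partners. Other protein-coding genes within 2000 bp of a summit, the comparison of replicate and pooled lists, the repeats, the 3' ends and the shared 12 bases were added after seeing the data. No test was made. Alternatives were other windows, a stricter set, each replicate alone, other matching rules and other flanks. Python 3.11.15, numpy 2.4.6, pandas 2.3.3 and matplotlib 3.10.9 were used.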

Additional observations from a re-analysis of the deposited data

How the results depend on the processing

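The count of 2 genes with a reproducible summit was also 2 with windows from 1000 or 500 bp upstream, in promoters only and in the stronger part of the set. Among the 2328 strongest regions of each replicate alone, 3 genes had a summit, with ufd-2 added. The rank of cdc-48.1, 11 in the pooled list, was 5 without replicate 4 and 19 without replicate 1, over 1.5 times away in each case, and its ratio to cdc-48.2, 7.47 in the pooled list, ran from 7.10 to 8.99. The SD of 2 replicates comes from these same values and gives no measure of stability. The partner genes with a reproducible summit fell to 1 of 18, ubxn-3, among the 1164 strongest peaks, where 7.19% of all genes had one. They were 2 with windows from 500 bp upstream (8.59% of all genes), and 3 with windows from 1000 bp upstream or in promoters. Among the 2328 strongest regions of a single replicate, 4 partner genes had a summit in replicate 1 (12.8% of all genes) and 2 in replicate 4 (12.3%). All 3 summits of the members were matched in both replicates within 50, 100 or 200 bp, and 2 by a 50% reciprocal overlap, which the ufd-3 region of replicate 1, 93 bp wide, did not reach. The AAGTG core was found at 1 of 3 summits within 25, 50 or 100 bp. Over all 2328 reproducible summits the share was 15.2%, 27.1% and 44.1% at these flanks. With 2 replicates of unknown depth, regions near the edge of the set, such as those of cdc-48.2 and the 3' end of cdc-48.1, cannot be ordered with confidence.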
